A study of Actinidia chinensis with 12 samples.

Results

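The genes described here stood at least 8-fold higher in fruit of the kiwifruit cultivar Hongyang than in fruit of Jinyan, in whole fruit and in flesh core alike, while Jinyan still gave at least 1 read. They number 46 of 39040 gene identifiers, or of 22199 that carried enough counts to be tested. Levels are in CPM, which are counts scaled by a library size corrected with edgeR's TMM factors. A gene was a member when its median CPM + 1 over the 3 Hongyang libraries was at least 8 times the same value in Jinyan in both tissues, and when at least 1 Jinyan library held a count. The members were thus chosen on their cultivar difference, and their cultivar levels and ratios are given as a description without a test. Adding 1 CPM before dividing understates the ratio of genes that are low in Jinyan, and it requires a median of about 7 CPM or more in Hongyang.

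The study sequenced poly(A) RNA of ripened, freshly harvested fruit in 12 libraries. Each cultivar gave 3 libraries of whole fruit and 3 of the flesh core. No treatment separates the groups, and neither genotype beyond the cultivar name nor the number of fruits or trees behind a library is given in the labels. The labels say whole fruit for the samples that are not core, whereas the series design speaks of the periphery. The shallowest library by far was replicate 3 of Hongyang whole fruit, at 1888744 counts, while the other 11 held between 6870519 and 21222578. The spread between replicates was widest in Hongyang whole fruit, with a biological coefficient of variation of 0.549 against 0.164 to 0.243 in the other groups.

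As background, Hongyang is a red-fleshed cultivar whose anthocyanin pigment lies in the flesh around the core, and Jinyan is a yellow-fleshed cultivar bred from a cross between Actinidia eriantha and Actinidia chinensis. Red and yellow flesh are known to differ in anthocyanin synthesis, and cultivars differ besides in sugars, acids, vitamin C, aroma and softening. The identifiers carry the prefix Achn, under which the gene models of the draft genome of Hongyang were published. The deposited table does not pair identifiers with gene names, so pigment, sugar, acid, cell wall and hormone genes could not be told from others, nor could markers of seed, skin or vascular tissue, and no function is given to any gene. A lower count in Jinyan can come from less RNA or from Jinyan reads that do not align to a gene model, and in a table of counts these cannot be told apart.

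The members formed the upper end of the cultivar ratios, and a pair of them stood far above the others. The ratio of medians ran from 8.16 to 788 in whole fruit, with a median over members of 13.9, and from 8.22 to 687 in core, with a median of 13.6, where the median over all tested genes was 1.01 and 1.05. By the smaller of the 2 ratios, 16 members lay from 8 to below 10, another 16 from 10 to below 16, 10 from 16 to below 32, and 4 above that. The ratio was larger in core for 27 members and larger in whole fruit for 19. A ratio of at least 8 was reached by 0.487% of tested genes in whole fruit, by 0.653% in core and by 0.257% in both, a total of 57 genes, of which the 11 without any Jinyan count are not members.

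**Figure D1:**
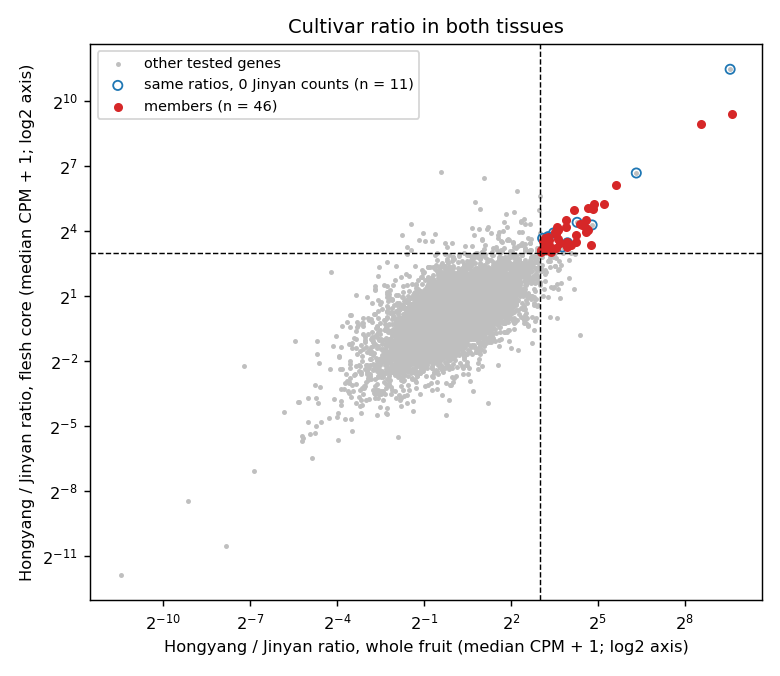
Ratio of Hongyang to Jinyan (group median CPM + 1, log2 axes) in whole fruit (x) and flesh core (y) for all tested genes. The 46 members (red) lie beyond the dashed lines at 8 on both axes, and 11 genes without any Jinyan count (blue rings) share that corner.

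At the threshold itself the members shade into other genes. The member with the lowest ratio stood at 8.16 in whole fruit and 8.81 in core, and the next at 8.21 and 8.22. Just outside, 1 gene reached 8.72 in whole fruit and 7.99 in core, and another reached 49.0 in core but 7.95 in whole fruit. The edge of the list is therefore set by differences far smaller than the spread between replicates.

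Achn125831 had the highest level of all members in Hongyang and the largest smaller ratio. It stood at 4096, 6610.1 and 7790.1 CPM in Hongyang whole fruit replicates 1 to 3 and at 29182, 9328 and 12307 CPM in the Hongyang core. In Jinyan it stood at 4.85, 8.0 and 7.39 CPM in whole fruit and at 5.64, 31.6 and 16.9 CPM in core. Every Hongyang library lay above every Jinyan library, the lowest Hongyang value being 129.5 times the highest Jinyan value. Its ratio of medians was 788 in whole fruit and 687 in core. This single identifier held 0.486 to 2.88% of the tested counts in the Hongyang libraries and 0.000495 to 0.00231% in the Jinyan libraries.

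Achn371301 came second by the smaller ratio, 375 in whole fruit and 486 in core. It stood at 443, 863 and 178 CPM in Hongyang whole fruit and at 734, 909 and 843 CPM in core. In Jinyan whole fruit it had 0, 0.848 and 0.185 CPM, and in Jinyan core 0.735, 1.09 and 0.275 CPM, resting on 38 counts in all. With such low Jinyan levels the smaller ratio depended on the value added to the median CPM, and it was 648 with 0.5 and 204 with 2 in place of 1. The shallow replicate 3 was the lowest of the Hongyang libraries, and it still lay far above all Jinyan libraries.

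Levels in Hongyang varied widely over the 46 members. Over the 6 Hongyang libraries, the median level was at most 10 CPM for 3 members, above 10 and up to 20 CPM for 14, up to 50 CPM for 13, up to 100 CPM for 9, up to 500 CPM for 4 and higher for 3. Another of these most abundant members, Achn130721, was at the same time the most abundant member in Jinyan, and it is named here for its levels after they were seen. It stood at 753, 929 and 397 CPM in Hongyang whole fruit and at 1077, 1233 and 1033 CPM in Hongyang core. In Jinyan it stood at 70.0, 37.6 and 61.1 CPM in whole fruit and at 47.7, 63.8 and 85.0 CPM in core, on 4282 counts. Its ratios of 12.2 and 16.6 therefore rest on well-counted values in both cultivars.

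The members also varied widely in how well they were counted in Jinyan. All 46 had counts in all 6 Hongyang libraries, whereas 24 had counts in all 6 Jinyan libraries, 8 in 5, 7 in 4, 1 in 3, 2 in 2 and 4 in a single one. The counts summed over Jinyan were under 10 for 5 members and at least 100 for 14. The median Jinyan level was 0 CPM for 6 members, above 0 and up to 0.5 CPM for 10, and above 10 CPM for 2. The members with counts in a single Jinyan library, named after their values were seen, were Achn014911 and Achn260221 with 2 counts each, Achn325511 with 5 and Achn029321 with 1. Between 5 and 12 members were at 0 in any 1 Jinyan library, where 3 counts, the limit that a count of 0 allows, correspond to 0.162 to 0.437 CPM before TMM correction. For members at 0, the ratio is limited by the depth of the Jinyan libraries and by the 1 CPM added in the rule.

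**Figure D2:**
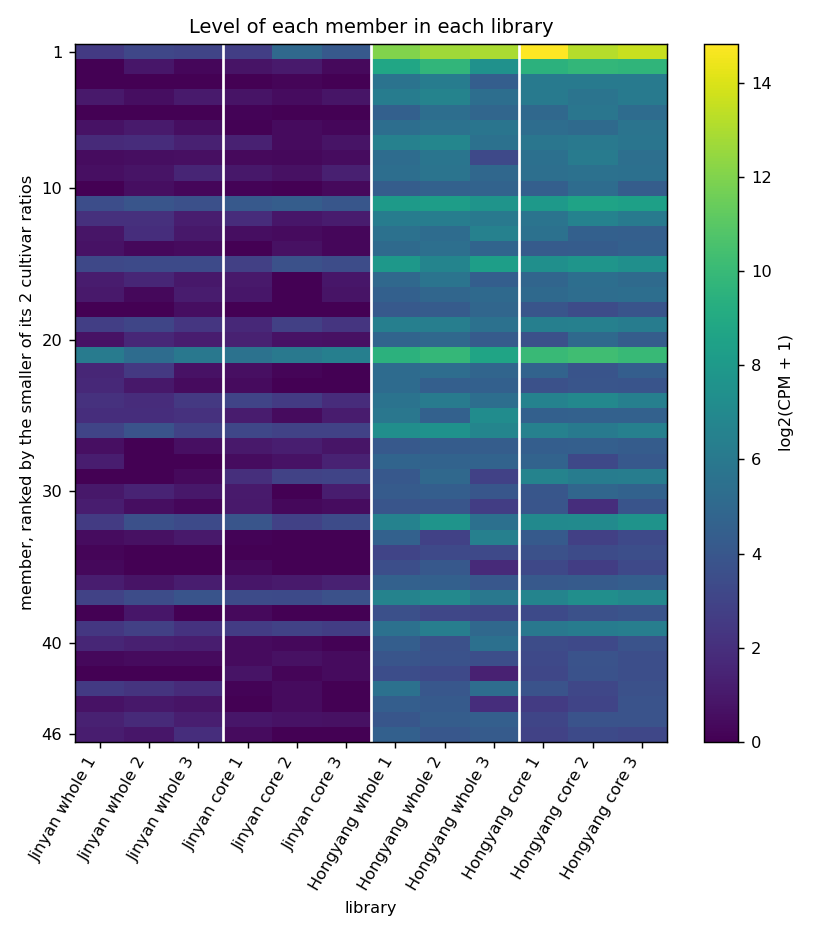
Level of each of the 46 members (rows, ranked by the smaller cultivar ratio) in each of the 12 libraries (columns), as log2(CPM + 1) in colour. The 6 Hongyang columns on the right are brighter than the 6 Jinyan columns except in row 29 (Achn353361), where Hongyang whole fruit replicate 3 at 6.35 CPM lies below Jinyan core replicates 2 and 3 at 6.53 and 7.09 CPM, with row 1 (Achn125831) brightest, and a few rows such as row 21 (Achn130721) also show clear Jinyan levels.

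Together, the members took 0.878 to 3.25% of the tested counts in the Hongyang libraries against 0.0129 to 0.0180% in the Jinyan libraries. Without Achn125831 these shares were 0.331 to 0.428% and 0.0112 to 0.0174%. The total thus varied between Hongyang libraries mainly through 1 gene, and the sum of the other 45 differed little from library to library. In each tissue all 46 members had every Hongyang library above every Jinyan library, which held for 18.7% of tested genes in whole fruit and 29.8% in core and follows in large part from the rule. Across all 6 against all 6 libraries it held for 45 members and for 8.08% of tested genes. The exception was Achn353361, described below with the tissue difference.

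Within Hongyang whole fruit the median spread between replicates was similar for members and for all tested genes, but at unlike levels. The median SD of log2(CPM + 1) was 0.45 for members and 0.484 for all tested genes, and in Hongyang core it was 0.264 and 0.201. Median levels were 32.5 CPM for members and 7.94 CPM for all tested genes in whole fruit, and 23.8 and 7.62 CPM in core. Because this SD depends on the level, the values do not show that members vary like other genes. Replicate 3 held the lowest whole fruit value for 29 members (63.0%, against 50.8% of all tested genes) and replicate 2 the highest for 22 (47.8%, against 42.1%). On the log2(CPM + 1) scale, replicate 3 minus replicate 2 ran from -2.50 to 3.58 over the members, with a median of -0.51 and of -0.28 over all tested genes. Single members could thus differ by a factor of several between whole fruit replicates without leaving the range above the Jinyan whole fruit libraries.

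The rule did not use the difference between core and whole fruit within a cultivar, which was tested with edgeR's quasi-likelihood test over all 22199 genes with Benjamini-Hochberg adjustment. In Hongyang, 2 of 46 members (4.35%) passed at an adjusted p under 0.05, 1 higher and 1 lower in the core, where 4.68% of all tested genes passed (2.5% higher and 2.18% lower). The share of members was near that background. The fitted log2 fold change of core against whole fruit ran from -1.80 to 2.14, with a median of -0.10 (0.01 over all tested genes), and 21 members (45.7%) had a positive value, against 50.7% of all tested genes. In tissue samples such as these, a change in the number of cells of a type and a change in RNA per cell cannot be told apart.

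The count in Hongyang rested on single libraries. Leaving out replicate 2 of Hongyang whole fruit gave 8 members, but the share of all tested genes called rose with it to 19.2%. Leaving out replicate 1 gave 0 members (0.758% of all tested genes), and so did leaving out core replicate 1, 2 or 3 (2.75, 1.16 and 1.58%). The count was 1 without any 1 of the Jinyan whole fruit replicates or without Jinyan core replicate 1 (2.80 to 3.31%), and 2 without the shallow whole fruit replicate 3 (5.01%). With library totals in place of TMM (5.54%), 1 of 4 called members was higher in the core, the median over all tested genes moving from 0.01 to -0.19.

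The member that passed as higher in the Hongyang core was Achn353361. It stood at 98.8, 73.9 and 76.7 CPM in Hongyang core and at 15.7, 31.4 and 6.35 CPM in Hongyang whole fruit, and the tissues did not overlap. Its log2 fold change was 2.14 ± 0.45 (SE; edgeR adjusted p = 0.020, and 2.9e-05 to 0.11 over the alternatives). This SE, like those below, is an approximation, the size of the fold change divided by the square root of its test's F statistic. The call was lost without whole fruit replicate 1 of Hongyang (adjusted p = 0.099 by edgeR) and without core replicate 1, 2 or 3 (0.051, 0.056 and 0.052). In Jinyan it stood at 2.94, 6.53 and 7.09 CPM in core and at 0, 0 and 0.277 CPM in whole fruit, again without overlap and again called (edgeR adjusted p = 0.0027). The Jinyan ratio of summed counts was 47.6 (229 counts against 3; 95% exact interval 16.1 to 233, counting error only), and all 3 whole fruit counts lay in replicate 3. Because its core level in Jinyan reached 7.09 CPM, it overlapped with the lowest whole fruit library of Hongyang, which was the shallow replicate 3.

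The member that passed as lower in the Hongyang core was Achn266251. It stood at 12.9, 7.81 and 11.9 CPM in Hongyang core and at 46, 15.3 and 38.5 CPM in Hongyang whole fruit, without overlap. Its log2 fold change was -1.61 ± 0.42 (SE; edgeR adjusted p = 0.045, and 1.2e-04 to 0.18 over the alternatives). The call was lost without any 1 of the Hongyang libraries other than whole fruit replicate 2, without Jinyan core replicate 1 and without each Jinyan whole fruit replicate, with edgeR adjusted p of 0.061 to 0.18. In Jinyan it stood at 0.123, 0.335 and 0 CPM in core against 4.72, 3.64 and 2.59 CPM in whole fruit, a log2 fold change of -4.58 ± 0.69 (SE; edgeR adjusted p = 0.0024). With Achn353361, it was called in the same direction in both cultivars.

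In Jinyan, 8 of 46 members (17.4%) passed the edgeR test between core and whole fruit, where 16.6% of all tested genes passed. A single member, Achn353361, was higher in the core (2.17%, against 8.15% of all tested genes called higher), and 7 were lower (15.2%, against 8.46% of all tested genes called lower). The 7 lower members had 19 to 94 counts over the whole fruit libraries and 6 to 31 over the core libraries, with log2 fold changes of -4.58 to -1.29 and adjusted p of 0.0024 to 0.033. None of their whole fruit values exceeded 4.72 CPM, so these calls concern low levels. In Hongyang, where their levels were far higher, all 7 had negative fold changes, from -1.61 to -0.17, and 1 of them (Achn266251) passed. Nothing about the list is read from this shared sign, since the rule ties the tissue differences of the 2 cultivars to each other, as set out below.

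Over all 46 members the Jinyan log2 fold change had a median of -0.52 (0.04 over all tested genes), and 18 (39.1%) had a positive value, against 52.0% of all tested genes. For 5 members with 0 counts in a Jinyan tissue the fitted value depends on the prior count. The median was -0.52 over the 41 with counts in both tissues, and -0.46 with those 5 at the bound set by 3 counts per group. The number called was 5 without whole fruit replicate 1 of Jinyan and 4 without its replicate 2, where 6.78 and 5.98% of all tested genes were called. It was 4 without core replicate 2 of Jinyan (6.06%), 3 without its replicate 3 (7.43%), and 14 without the shallow Hongyang whole fruit replicate 3 (27.7%). With library totals in place of TMM it was 13 (21.8%), 12 of them lower, the median over all tested genes lying at -0.40.

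**Figure D3:**
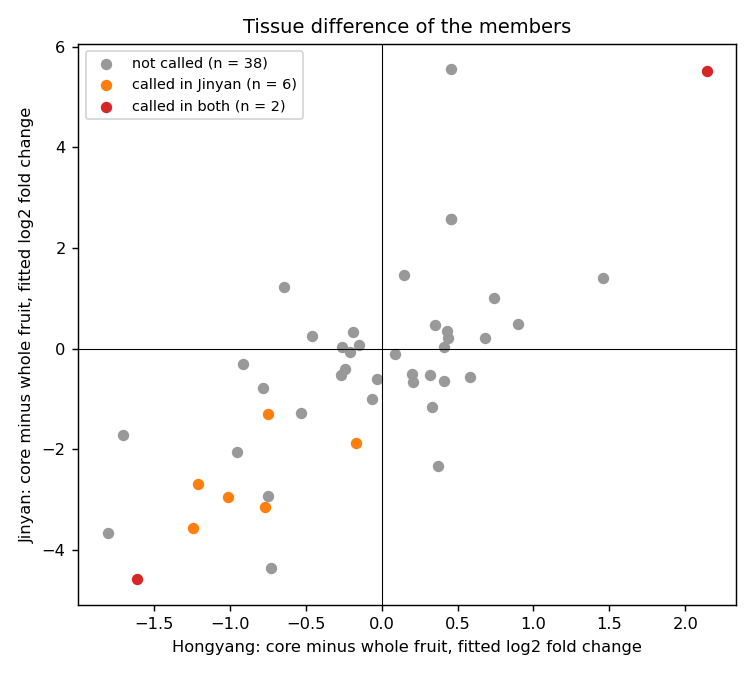
Fitted log2 fold change of core against whole fruit in Hongyang (x) and in Jinyan (y) for the 46 members, coloured by the edgeR calls at an adjusted p under 0.05. Members lower in the Jinyan core (orange, n = 6, and 1 of the 2 red points) lie to the left of 0 in Hongyang as well, and Achn353361 lies at the upper right.

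The tissue differences of the 2 cultivars were measured in separate libraries, but the rule couples them. The gap between them is the gap between the fitted cultivar differences in the 2 tissues. The rule bounded related values, ratios of medians with 1 CPM added, and both had to reach 8. The link is loose where Jinyan counts are few. Achn353361, with 3 counts in Jinyan whole fruit, had ratios of 16.7 and 10.3 but a fitted gap of -3.37 log2 units. The fitted log2 fold changes had the same sign for 33 of 46 members, 20 of them lower and 13 higher in the core, and correlated at Pearson r = 0.735 and Spearman rho = 0.712. Over all 22199 tested genes r was 0.424 and rho 0.393. Over the 41 members with counts in both Jinyan tissues, r was 0.809 and rho 0.699. These correlations are across genes that share the same 12 libraries, and they are given as a description. With the coupling by the rule, nothing about the members is read from an r above that over all genes. Pearson r over the 46 members ranged from 0.584 (without Jinyan whole fruit replicate 1) to 0.738 when single libraries were left out.

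An interaction term in the same fit tested if the core difference of a member was unlike in the 2 cultivars. With edgeR, 0 of 46 members passed, where 2.25% of all tested genes did. At an unadjusted p under 0.05 there were 7 members (15.2%, against 17.7% of all tested genes). DESeq2 called 2 (7.23% of all tested genes) and limma voom with sample weights called 0 (13.3%). Without the shallow Hongyang whole fruit replicate 3, 3 members passed (8.19%). The interaction is also the gap between the fitted cultivar differences in the 2 tissues, and the rule bounds related ratios from below. Nothing about the list is therefore read from the count. A p above the threshold does not show equal tissue differences. The approximate standard error of the interaction exceeded 1 log2 unit for members such as Achn353361 (-3.37 ± 1.09 SE, edgeR adjusted p = 0.12).

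Identifiers of this kind are numbered in steps, and the numbers next to the members were examined after the values were seen, without coordinates. Directly before or after a member stood 90 other identifiers that are not members themselves. Of these, 52 were tested, and 11 (21.2%) were at least 2-fold higher in Hongyang in both tissues, against 5.19% of all tested genes. At 2 places' distance it was 7 of 59 (11.9%). The shares overlap, since Achn118151 and Achn118181 lie next to 1 member and 2 places from another and are counted in both. The share at 1 place ran from 18.2 to 22.6% when single libraries were left out. Ratios of at most 1/2 in both tissues were found for 3 of the 52 and 5 of the 59 genes (5.77% and 8.47%, against 4.59% of all tested genes). Both members and neighbours were measured in the same libraries, and no test was made.

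The clearest stretch held the only members that follow each other directly, Achn118161 and Achn118171. Achn118161 stood at 36.6, 53.9 and 8.74 CPM in Hongyang whole fruit and 42.7, 69.9 and 41.6 CPM in Hongyang core, against 0.251 to 0.554 CPM in the 6 Jinyan libraries. Achn118171 stood at 97.5, 126 and 59.6 CPM and at 101.3, 158 and 119 CPM in the same groups, against 6.56 to 13.5 CPM in Jinyan. All 6 successive identifiers from Achn118131 to Achn118181 were at least 2-fold higher in Hongyang in both tissues. Their ratios in whole fruit were 4.77, 3.66, 5.86, 25.3, 9.11 and 5.99, and those in core 10.1, 18.2, 3.42, 33.5, 11.2 and 5.72. Achn118131 stood at 0.206 to 0.613 CPM in Jinyan and at 0.794 to 13.3 CPM in Hongyang. Achn118151 stood at 0 to 0.787 CPM in Jinyan and at 2.91 to 10.7 CPM in Hongyang. At such low Jinyan levels the ratios of Achn118131 and Achn118151 depend on the 1 CPM added. The identifiers on either side of the stretch, Achn118121 and Achn118191, had ratios of 0.728 and 1.04 in whole fruit and 1.08 and 0.855 in core. Farther out, Achn118101, 6 places before Achn118161, had ratios of 6.01 in whole fruit and 4.7 in core. Among all tested genes, 1 such run had 6 identifiers, 1 had 4, beginning with the member Achn144051, 4 had 3 and 46 had 2.

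**Figure D4:**
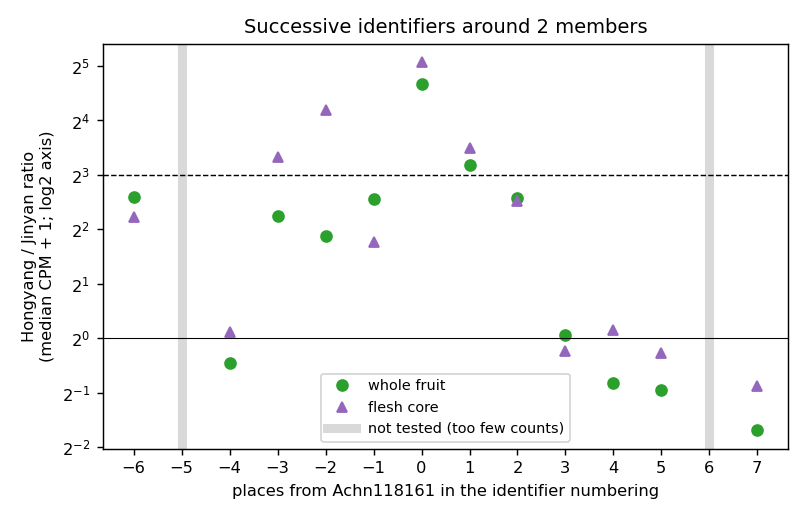
Ratio of Hongyang to Jinyan (median CPM + 1, log2 axis) for successive identifiers around Achn118161 (place 0) and Achn118171 (place 1), with the dashed line at the rule's 8. The 6 identifiers from place -3 to place 2 lie above 2 in both tissues, the ones directly before and after them lie close to 1, and Achn118101 at place -6 lies at 6.01 in whole fruit and 4.7 in core.

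Near the most abundant member, Achn125831, the numbering held the opposite pattern in Achn125851. Directly before the member, Achn125821 had a ratio of 0.0705 in whole fruit and 0.777 in core. The cultivars overlapped in core for Achn125821. Achn125851, 2 places after Achn125831, stood at 2793, 1948 and 3264 CPM in Jinyan whole fruit and at 1846, 5528 and 5412 CPM in Jinyan core. In Hongyang it had 5, 0 and 0 counts in whole fruit and 6, 22 and 4 counts in core. Each library thus held at least 1846 CPM of either Achn125831 or Achn125851 and at most 31.6 CPM of the other. Achn125831 made up 0.173 to 0.569% of their joint counts in Jinyan. In whole fruit the sum of both ran from 1956 to 3271 CPM in Jinyan and from 4097 to 7790 CPM in Hongyang. In core it ran from 1852 to 5560 CPM in Jinyan and from 9328.5 to 29182 CPM in Hongyang. Within each tissue the sum was thus higher in every Hongyang library than in every Jinyan library. The cultivars overlapped in the sum only across tissues, where Jinyan core replicates 2 and 3 lay above Hongyang whole fruit replicate 1. Achn125841, the identifier between Achn125831 and Achn125851, had at most 11 counts in any library. Whether the 2 gene models share sequence, so that reads could be assigned to either, was not tested, since no sequence was used here, and the level of Achn125831 as a separate gene is uncertain for that reason.

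**Figure D5:**
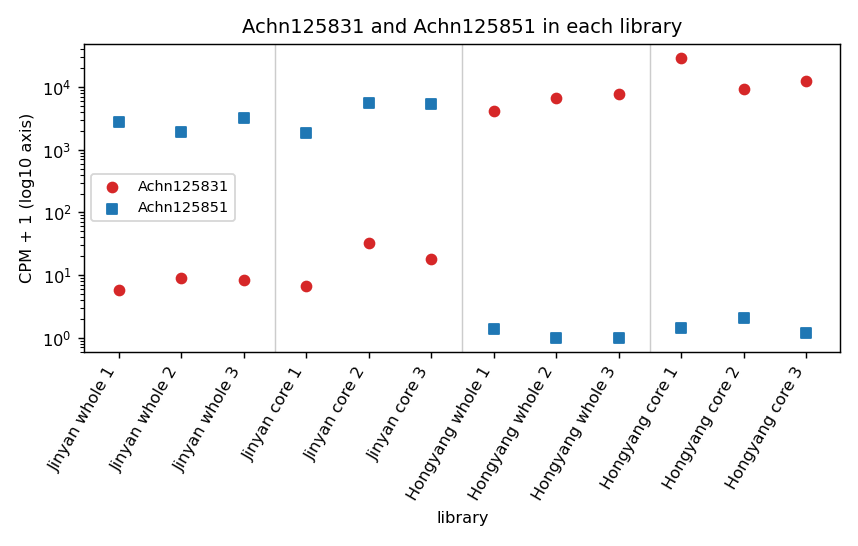
CPM + 1 (log10 axis) of Achn125831 (red circles) and Achn125851 (blue squares) in each of the 12 libraries. Achn125851 lies between 1846 and 5528 CPM in Jinyan and at 0 to 1.06 CPM in Hongyang, and Achn125831 at 4.85 to 31.6 CPM in Jinyan and 4096 to 29182 CPM in Hongyang.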

How the data were processed

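The data are the authors' deposited raw counts, 1 column per library and 1 row per gene identifier, and the description label ties each column to its sample. The submitters' processing notes name Trimmomatic 0.36 and HISAT2 2.1.0. The sources used here do not say which counting program, genome build, annotation or strand setting was applied or how multiply aligned reads were handled, so overlapping, antisense and near-identical genes are uncertain. Among the Jinyan counts of members from 1 to 20, 84 of 142 (59.2%) were even. The same share over all tested genes is not given here, and the cause was not tested. The filter was filterByExpr over the 4 groups, and kept genes were scaled by TMM and fitted with 4 group means over all 12 libraries (edgeR 4.0.16, R 4.3.3, two-sided, adjusted p under 0.05). Alternatives used DESeq2 1.42.0 and limma 3.58.1. Named are the 2 members with the largest smaller ratio and, per tissue contrast, called members with the largest difference, a mean of at least 5 CPM and no overlap, at most 2 per direction; others are said to be named after their values were seen. Members and lists were chosen with earlier results of these data known. No label ties replicates to separate fruits or trees, so the p-values cover only library-to-library spread, which may be technical. All replicate pairs differed by more than sampling noise (lowest chi-square per degree of freedom 5.77). Intervals and limits cover counting error only and treat each count as an independent event.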

Additional observations from a re-analysis of the deposited data

How the results depend on the processing

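The number of members was 91 with 0.5 and 26 with 2 added to the median CPM, 213 at a ratio of at least 4 and 14 at a ratio of at least 16, against 46. It ran from 39 to 52 when single libraries were left out, and library totals gave 60, of which 45 were among the 46. The number of members called between core and whole fruit in Hongyang, 2 in the reported fit (4.68% of all tested genes), was 4 with library totals (5.54%), 5 with halved counts (7.02%), 0 when the 6 Hongyang libraries were fitted alone (0.366%), 21 with limma voom with sample weights (27.5%) and 8 with DESeq2 (11.7%), and 0 to 8 when single libraries were left out (0.758 to 19.2%). In Jinyan, 8 in the reported fit (16.6%), it was 13 with library totals (21.8%), 17 with DESeq2 (24.2%) and 7 with limma voom with sample weights (34.7%). There it was 3 to 14 when single libraries were left out (5.98 to 27.7%). Fitting the 6 Jinyan libraries alone left 24 members to test, of which 6 were called (35.1% of all tested genes). The interaction, 0 in the reported fit (2.25%), gave 1 without a filter on low counts (2.1%), 2 with DESeq2 (7.23%) and 0 to 3 when single libraries were left out (0.649 to 8.19%). The cause of these shifts was not tested. With the replicate number as a block, 1 member was called in Hongyang (3.85%), 9 in Jinyan (15.8%) and 0 for the interaction (1.97%). Achn266251 lost its Hongyang call there. The labels do not say if the numbers pair the libraries, and the values do not settle it. Deviations from the group means correlated above 0.1 in 3 of 18 same-numbered pairs (-0.071 to 0.245). Pairs with different numbers ran from -0.157 to 0.12, and 5 of 12 libraries correlated best with their own number. Correlations and neighbour shares without single libraries were added after seeing the data.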

Other observations

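The 11 genes that met both ratios with 0 counts in every Jinyan library had Hongyang medians of 7.55 to 755 CPM in whole fruit and 8.57 to 2837 CPM in core.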
